A study of Mus musculus with 32 samples.

Results

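The report covers 10 axon guidance genes of the netrin system in the jaws of mouse embryos at embryonic day 13.5: the ligands Ntn1 and Ntn4, the receptors Unc5a, Unc5b, Unc5c, Unc5d, Dcc and Neo1, and the Unc5-binding membrane proteins Flrt2 and Flrt3. They were matched by gene symbol in the array's annotation, 10 of 18193 genes with a probe set of their own. The family was chosen by a measured value of the same arrays: the log2 difference of Unc5d, averaged over regions, was among the largest falls in the mutants. Its difference between genotypes is therefore given as a description, with no test.

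Netrins are secreted, laminin-related proteins that attract or repel growing axons and migrating cells. Dcc and its relative Neo1 mediate attraction, Unc5 receptors mediate repulsion, alone or together with Dcc, and Unc5 receptors can signal cell death when no ligand is bound. Flrt proteins bind Unc5 receptors and latrophilins on neighbouring cells, and so act as ligands as well as adhesion molecules. In the developing jaw these genes are known from outgrowing trigeminal nerves, from vessels, and from the mesenchyme that arises from the neural crest.

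Total RNA was measured on 32 Affymetrix arrays, 4 for each of 8 groups. The mutants carried Wnt1-Cre with floxed Alk5 (Wnt1cre;Alk5fl/fl by the mating described), and the controls were their littermates, all on the background labelled C57B6. Alk5, gene symbol Tgfbr1, is the type I receptor for TGF-beta, and Wnt1-Cre acts in the neural crest, so epithelium, vessels and muscle fibres keep the gene. Mutants were recognised by cleft palate and calvarial defect. Which floxed alleles or Cre the controls carried is not given in the sources used here. From each genotype there were distal mandible, proximal mandible, distal maxilla and proximal maxilla. Arrays of a group are numbered 1 to 4, and the labels do not say whether these are separate embryos, so p-values here reflect array-to-array spread, which may be technical.

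Array medians lay between 7.35 and 7.49, and arrays of a group correlated at 0.926 to 0.997. All values are log2 expression, so a difference of 1 is a 2-fold change. As a measure of low signal, percentile 40 of an array lay at 6.66 to 6.86. Tgfbr1 itself averaged 12.96 ± 0.03 in mutant against 12.68 ± 0.07 in control distal mandible (SD, n = 4 each), a difference of 0.28 ± 0.07 (SE, adjusted p = 0.0411). In distal maxilla it was higher in mutants by 0.41 ± 0.07 (adjusted p = 0.00477), and it was not lower in the mutants of any region. Whether its probe set lies in the deleted exons is not given in the sources used here, so it does not check the genotype labels. The jaw mesenchyme markers, 9 measured, lay above percentile 40 on all arrays, with Prrx1 at 12.46 or more. Msx2 fell to 7.13 and Msx1 to 9.20 on their lowest arrays. The maxilla arrays of mutant number 4 and control number 2 resembled the opposite end of the maxilla. Their mean correlations with arrays of their own end were -0.35 and -0.28 for mutant number 4, and -0.53 and -0.30 for control number 2. Those with the other end were 0.22 and 0.27 for mutant number 4, and 0.15 and 0.17 for control number 2. In all, 7 of 16 maxilla arrays lay closer to the other end, and all 16 mandible arrays closer to their own. The other 3 were mutant proximal maxilla number 2 (-0.18 with its own end, -0.12 with the other), control proximal maxilla number 1 (-0.27 and -0.26) and control proximal maxilla number 3, at -0.13 with both. These 3, with smaller gaps, were kept. Maxilla results are given with all arrays, and only some of them also without the first 4 arrays, called doubtful here. On control distal mandible number 3, the Gapdh 3′ probe set exceeded the 5′ one by 2.23, against -0.18 to 0.12 on the other 31 arrays.

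The upstream sequences of 4 members are shown because their mandibular patterns ran in opposite directions: Unc5b (in mutants) and Unc5c (in controls) were higher distally, Flrt2 and Flrt3 proximally in both genotypes. Each is the 250 bases before the RefSeq gene start (GRCm38.p6), 5′ to 3′ on the gene's strand, from a table that held 7 of the 10 members. Capitals mark matches, on either strand, to CAGAC, a core recognised by the Smad proteins that act below the TGF-beta receptor, or to the GC-rich Smad motif GGCGCC.
Unc5b, chr10:60831582-60831831, minus strand: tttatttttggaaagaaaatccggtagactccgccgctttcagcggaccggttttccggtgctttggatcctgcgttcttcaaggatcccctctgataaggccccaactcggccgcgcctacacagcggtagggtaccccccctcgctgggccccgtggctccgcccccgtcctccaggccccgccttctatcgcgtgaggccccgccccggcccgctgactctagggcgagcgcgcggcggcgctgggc
Unc5c, chr3:141465314-141465563, plus strand: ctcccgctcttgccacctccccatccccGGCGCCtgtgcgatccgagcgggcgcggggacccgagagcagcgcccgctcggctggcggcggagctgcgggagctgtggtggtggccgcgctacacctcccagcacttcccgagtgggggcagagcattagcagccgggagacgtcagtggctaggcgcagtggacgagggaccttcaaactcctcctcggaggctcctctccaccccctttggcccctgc
Flrt2, chr12:95691976-95692225, plus strand: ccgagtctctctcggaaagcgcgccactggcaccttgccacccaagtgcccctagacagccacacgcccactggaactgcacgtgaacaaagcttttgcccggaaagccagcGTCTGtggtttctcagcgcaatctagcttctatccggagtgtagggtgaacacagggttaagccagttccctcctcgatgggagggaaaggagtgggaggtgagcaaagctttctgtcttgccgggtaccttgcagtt
Flrt3, chr2:140671477-140671726, minus strand: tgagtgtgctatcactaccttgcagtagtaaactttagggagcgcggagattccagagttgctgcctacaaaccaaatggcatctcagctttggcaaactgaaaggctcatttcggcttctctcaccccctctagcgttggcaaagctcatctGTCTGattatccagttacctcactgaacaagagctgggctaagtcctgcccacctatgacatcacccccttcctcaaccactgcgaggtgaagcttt

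CAGAC, on its opposite strand, occurred 1 time in the Flrt2 window, 138 bases before the start, and 1 time in the Flrt3 window, 97 bases before it. GGCGCC occurred 1 time in the Unc5c window, 222 bases before the start, and neither motif occurred in the Unc5b window. The 2 motifs do not overlap each other. Of 32851 promoters in the table, 42.2% held CAGAC and 9.59% held GGCGCC in the same window. The GC content was 66.8% for Unc5b, 71.2% for Unc5c, 57.2% for Flrt2 and 50.0% for Flrt3.

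Unc5d, a netrin receptor that also binds Flrt2 and Flrt3, was the member with the largest average difference between genotypes. In distal mandible it read 7.42, 7.71, 7.10 and 6.97 on the mutant arrays, against 9.06, 8.78, 8.59 and 8.57 on the control arrays. In proximal mandible it read 8.71, 8.02, 8.21 and 8.14 in mutants, against 9.07, 9.50, 9.41 and 9.18 in controls. The genotypes did not overlap at either end of the mandible. Apart from Unc5d, by which the family was chosen, no member was without overlap at the proximal end, against 11.8% of all tested genes.

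In distal maxilla Unc5d read 7.32, 8.67, 8.23 and 8.30 in mutants, against 9.50, 9.70, 8.89 and 8.84 in controls, again with no overlap. Mutant number 1, the lowest, had the highest percentile 40 of all arrays, 6.86, with the next highest at 6.74. No other member was without overlap here, against 5.65% of all genes. In proximal maxilla it read 8.98, 8.61, 8.49 and 8.47 in mutants, against 9.31, 8.89, 9.27 and 9.76 in controls. Here mutant number 1 lay above control number 2, and 0 of 10 members were without overlap, against 3.16% of all genes. Of the 8 group means, the lowest was 7.30 ± 0.33 in mutant distal mandible and the highest 9.31 ± 0.36 in control proximal maxilla (SD, n = 4). All 4 mutant groups lay below all 4 control groups in that order, although each group's range overlapped that of its neighbour.

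As a description, Unc5d differed by -1.06 ± 0.08 on average (SE), 2.09-fold lower in mutants, and its 4 averaged mutant values lay below the 4 control ones. No other member was without overlap on average, against 11% of all genes. The regional differences were -1.45 ± 0.24 in distal mandible, -1.02 ± 0.24 in proximal mandible, -1.10 ± 0.24 in distal maxilla and -0.67 ± 0.24 in proximal maxilla. It ranked 33rd among the average falls of all 13705 tested genes, between Sgms2 at -1.07 and Ppbp at -1.06. Without the 4 doubtful maxilla arrays the average was -0.998 and the maxillary differences were -1.003 distally and -0.75 proximally. Unc5d has 1 probe set, so no second probe set was available to set beside it. Of the cell type markers, 4 of 8 for macrophages were higher and 1 of 12 for neurons was lower in mutants on average. Over all genes 1.37% were called on average, in either direction. None of 9 for mesenchyme, 9 for cartilage, 9 for endothelium, 9 for muscle, 10 for epithelium, 5 for Schwann cells or 4 for red cells was called, with limma at the same threshold. Every cartilage marker had a lower average in mutants without passing, with Cnmd (-1.68), Hapln1 (-1.46), Acan (-1.37) and Col9a3 (-1.16) lowest (adjusted p = 0.138 to 0.21). In distal mandible no macrophage marker was called higher, and Ptprc was lower by -1.08 (adjusted p = 0.00853). Among macrophage markers Trem2 was called higher in every other region. The part of all these tissues in the Unc5d values was not tested. In tissue RNA, fewer cells of a type and less RNA per cell cannot be told apart.

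**Figure D1:**
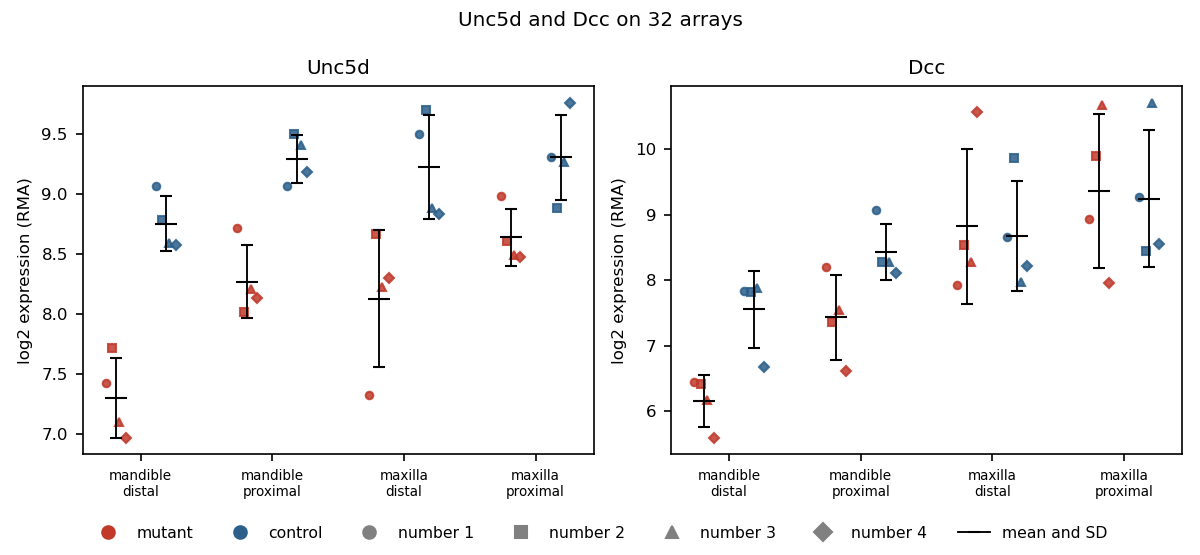
Log2 expression of Unc5d and Dcc on each array by region, with mutant left of control; point shapes give the array number, and bars the mean and SD of 4 arrays. Unc5d means lie lower in mutants in every region, with overlap only in proximal maxilla, while Dcc was low in the mutant mandible and spread widely in both genotypes of the maxilla.

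The size of the Unc5d difference did not pass a test for variation among regions. This question is independent of the average that chose the gene. The mandible-minus-maxilla difference of the genotype effects was -0.35 ± 0.34 distally (adjusted p = 0.86) and -0.36 ± 0.34 proximally (adjusted p = 1). The distal-minus-proximal difference of the effects was -0.43 ± 0.34 in mandible (adjusted p = 0.999) and -0.44 ± 0.34 in maxilla (adjusted p = 0.998).

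With all arrays, none of the other 9 members passed the test for a genotype difference. Unc5c in distal maxilla fell under the threshold without the 4 doubtful arrays, a description, since these were left out for their own expression. With limma at an adjusted p of 0.05, 0 of 9 were called on average, where 1.37% of all tested genes were. In distal mandible 0 of 9 were called, against 1.91% of all genes, and in proximal mandible 0 of 9, against 1.26%. In distal maxilla 0 of 9 were called, against 0.788%, and in proximal maxilla 0 of 9, against 0.0657%. At an unadjusted p under 0.05 the count was 1 on average, against 14% of all genes, and 3 in distal mandible, against 16%. In proximal mandible it was 0, against 11.9%, in distal maxilla 1, against 12.9%, and in proximal maxilla 1, against 4.9%. With the array number as a block the numbers of members called were again 0, although more genes were called, 388 against 188 for the average.

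Dcc, the netrin receptor of attraction, had the largest differences among these 9 in the mandible, though they did not pass. In distal mandible it read 6.46, 6.42, 6.17 and 5.60 in mutants, against 7.84, 7.82, 7.88 and 6.67 in controls. All 4 mutant values lay below the 4 control values and below percentile 40 of their arrays, where RMA values compress differences. The difference was -1.39 ± 0.57 (SE, adjusted p = 0.213). Apart from Unc5d, by which the family was chosen, Dcc and Unc5b were the members whose genotypes did not overlap here, against 12.3% of all tested genes.

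In proximal mandible Dcc read 8.21, 7.37, 7.54 and 6.62 in mutants, against 9.07, 8.28, 8.28 and 8.11 in controls, where the genotypes overlapped. The difference was -1.0 ± 0.57 (adjusted p = 0.531). In maxilla the Dcc differences were 0.15 ± 0.57 distally (adjusted p = 0.95) and 0.12 ± 0.57 proximally (adjusted p = 0.999). Maxillary values spread from 7.93 to 10.67 in mutants and from 7.98 to 10.70 in controls. In distal maxilla the highest array of each genotype was a doubtful one, mutant number 4 at 10.56 and control number 2 at 9.86. Averaged over the 4 regions, Dcc differed by -0.53 ± 0.19 (unadjusted p = 0.0229, adjusted p = 0.248).

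The genotype by jaw difference of Dcc at the distal end, -1.54 ± 0.80, did not pass either (adjusted p = 0.727). The probe sets of Dcc disagreed in part. A second probe set ran together with the tested one over the 32 arrays (r = 0.991) and differed by -1.46 ± 0.55 in distal mandible. The remaining probe set, with a mean of 7.08 and above percentile 40 on 31 of 32 arrays, showed no such pattern (r = -0.16). It differed by -0.05 ± 0.20 in distal mandible.

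In the mandible the neuron marker means lay on the same side as Dcc. The mean of the 12 neuron markers was 7.88 ± 0.06 in mutant against 8.40 ± 0.28 in control distal mandible (SD, n = 4 each). Its range was 7.82 to 7.96 in mutant and 8.10 to 8.74 in control arrays. In proximal mandible it was 8.73 ± 0.77 in mutants and 9.38 ± 1.02 in controls. In distal maxilla it was 10.49 ± 0.45 in mutants and 9.43 ± 0.35 in controls, and in proximal maxilla 10.19 ± 0.81 in mutants and 10.87 ± 1.24 in controls. Stmn2, a microtubule regulator of growing neurons, was the 1 of 12 markers called in distal mandible, -2.49 ± 0.44 (adjusted p = 0.00245). Of all genes 1.91% were called there. No marker was lacking throughout, but Snap25 lay above percentile 40 on only 14 of 32 arrays and Prph on 19. The part of neurons in the Dcc values was not tested.

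**Figure D2:**
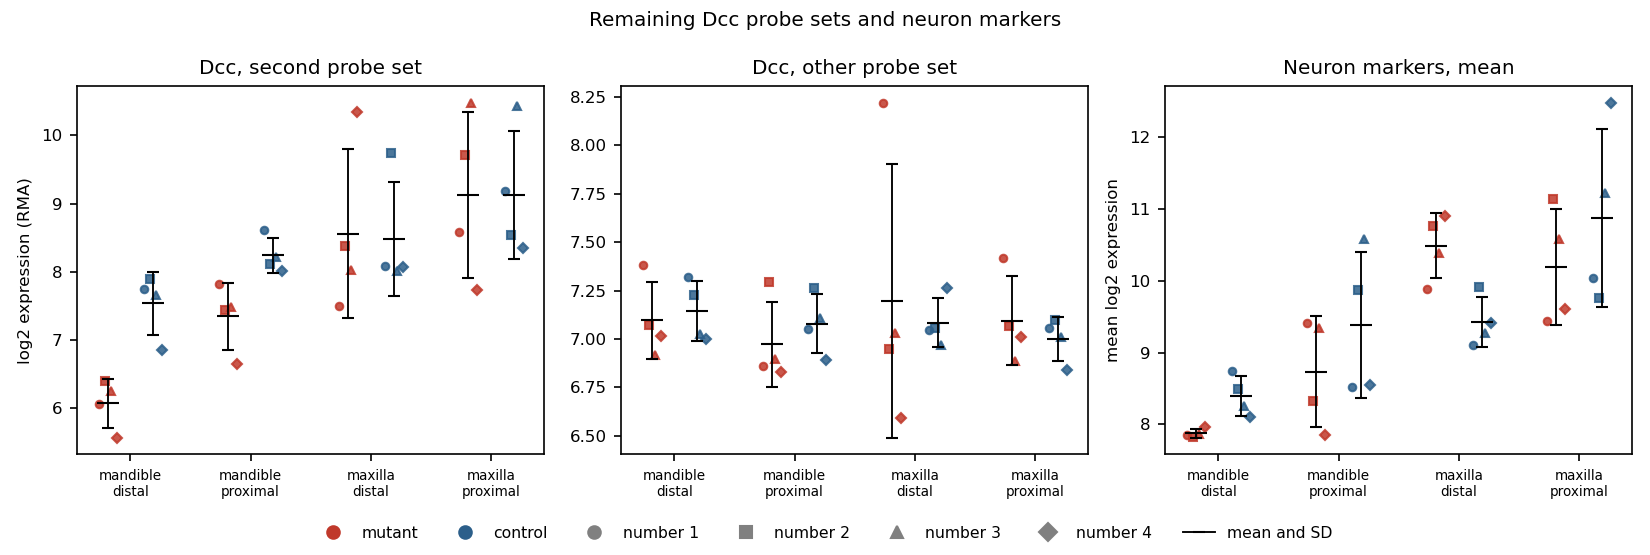
The remaining probe sets of Dcc and the mean of 12 neuron markers, on log2 scales that differ between panels, with mutant left of control; bars are the mean and SD of 4 arrays. The second probe set shows the low mutant mandible of the tested one, the other lies near 7.08 except on 1 mutant distal maxilla array, and the neuron markers are lowest in mutant distal mandible at 7.88.

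Among the other receptors, Unc5c had lower means in the mutant maxilla that did not pass with all arrays. In distal maxilla it read 10.48, 10.05, 10.35 and 10.09 in mutants, against 11.54, 10.39, 11.07 and 10.74 in controls. Control number 2, a doubtful array, was the only control inside the mutant range. The difference was -0.69 ± 0.26 with all arrays (adjusted p = 0.226) and -0.82 ± 0.20 without the 4 doubtful ones (adjusted p = 0.0319). Those arrays were left out for resembling the opposite end, so the second value depends in part on that choice. It is given as a description.

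In proximal maxilla Unc5c read 9.69, 9.84, 9.74 and 10.80 in mutants, against 10.66, 11.40, 10.02 and 10.03 in controls. The highest array of each genotype was again a doubtful one, number 4 in mutants and number 2 in controls. The difference was -0.51 ± 0.26 (adjusted p = 0.999), and -0.48 ± 0.20 without the doubtful arrays (adjusted p = 0.827). The second Unc5c probe set gave -0.75 ± 0.29 distally (adjusted p = 0.307 over probe sets).

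Unc5b, a receptor known from vessels as well as axons, read 10.51, 10.48, 10.40 and 10.62 in mutant distal mandible, against 9.98, 10.19, 10.37 and 10.03 in control. The genotypes did not overlap, with a difference of 0.36 ± 0.24 (adjusted p = 0.483). Its other probe set differed by 0.04 ± 0.25, so the probe sets disagreed on this gap. Unc5a, known mainly from neurons, stayed between 7.35 and 8.15 on all arrays, and its regional genotype differences lay between 0.05 and 0.10.

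Neo1, the Dcc relative that also binds repulsive guidance molecules, differed by -0.21 ± 0.10 in distal mandible (adjusted p = 0.282). Its regional differences elsewhere lay between -0.03 and -0.01. Neo1 has 5 probe sets, and the other 4 correlated with the tested one at -0.26 to 0.22 over 32 arrays, so its values depend on the probe set. Another of its probe sets differed by 1.06 ± 0.44 in distal mandible (adjusted p = 0.249 over probe sets), in the opposite direction. It was the weakest of the 5, with a mean of 7.54, and above percentile 40 on 29 of 32 arrays. On control distal mandible number 1 it read 6.23, below percentile 40. The second strongest probe set read 10.43, 10.77, 10.68 and 10.75 in mutant distal mandible, against 10.61, 10.75, 10.52 and 10.59 in control.

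Of the ligands, Ntn4 read 7.93, 8.01, 8.29 and 8.25 in mutant distal mandible, against 8.95, 8.22, 8.90 and 8.47 in control. Mutant numbers 3 and 4 lay above control number 2. The difference was -0.51 ± 0.21 (adjusted p = 0.223), and elsewhere Ntn4 differed by 0.13 to 0.27. Ntn1, the main long-range netrin, differed by -0.37 ± 0.24 in distal mandible (adjusted p = 0.464) and by 0.41 ± 0.24 in proximal mandible (adjusted p = 0.548). Both ligands have a second probe set that lay below the filter, so 1 probe set stands for each.

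Of the Unc5 binding partners, Flrt2 read 11.96, 12.41, 12.06 and 12.40 in mutant proximal maxilla, against 12.75, 13.30, 12.60 and 12.41 in control. The genotypes overlapped at 12.41. The difference was -0.55 ± 0.17 (adjusted p = 0.316), and in the other regions Flrt2 differed by 0.02 to 0.09. Flrt3 differed by 0.08 to 0.14 in the 4 regions, with adjusted p-values of 0.861 or more.

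**Figure D3:**
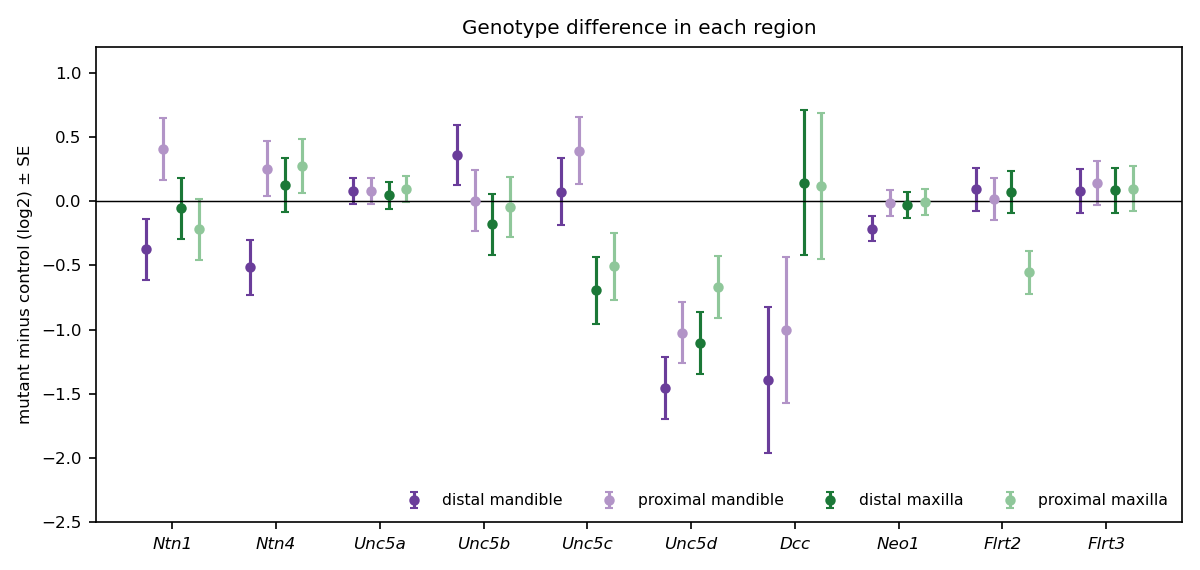
Mutant minus control difference in log2 expression for each gene in the 4 regions, with SE bars from the model of 8 groups. Unc5d lies below 0 in all regions, at -1.45 to -0.67, and Dcc in the mandible only, while the 8 remaining genes lie within 0.69 of 0.

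Ends of the mandible differed in members of each class, ligand, receptor and Flrt. Distal against proximal control mandible called 4 of 10 members, against 4.84% of all tested genes. Unc5c and Ntn4 were higher distally, and Flrt2 and Flrt3 were lower there. The distal and proximal arrays did not overlap for 8 of 10 members, against 11.2% of all genes. Because the members were chosen with such results known, these shares are a description. The median difference over the 10 members was -0.43, against 0.00 over all genes.

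Unc5c read 11.27, 11.32, 11.68 and 11.22 in distal control mandible, against 10.41, 10.33, 10.21 and 10.03 in proximal. The ends did not overlap, and the difference was 1.13 ± 0.26 (adjusted p = 0.00934). Its second probe set gave 0.78 ± 0.29 (adjusted p = 0.165 over probe sets), the same direction below the threshold. On distal control number 3, the array of high Gapdh ratio, that probe set read 9.36, against 10.14, 10.34 and 10.12 on the other distal control arrays. In mutant mandible Unc5c read 11.66, 11.38, 11.27 and 11.47 distally, against 10.87, 10.91, 10.37 and 10.41 proximally. There too the ends did not overlap, but 0.81 ± 0.26 did not pass (adjusted p = 0.0732).

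Flrt2 read 12.0, 11.60, 11.73 and 11.43 in distal control mandible, against 12.68, 12.60, 12.69 and 12.54 in proximal. The difference was -0.94 ± 0.17 (adjusted p = 0.00111). In mutant mandible it read 11.82, 11.79, 11.76 and 11.76 distally, against 12.61, 12.69, 12.67 and 12.62 proximally. These 2 mutant groups had the smallest spreads of Flrt2, with SDs of 0.03 and 0.04. The mutant difference was -0.86 ± 0.17 (adjusted p = 0.0016).

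Flrt3 read 11.82, 11.21, 11.43 and 11.18 in distal control mandible, against 12.09, 12.22, 12.25 and 11.98 in proximal. The difference was -0.72 ± 0.17 (adjusted p = 0.0126). In mutant mandible it was -0.79 ± 0.17 (adjusted p = 0.0057), with 11.39 to 11.75 distally and 12.03 to 12.50 proximally. On the tested probe set, the lowest of the 8 proximal mandible arrays, at 11.98, exceeded every array of the other 6 groups, whose highest was 11.87 in mutant distal maxilla. The second Flrt3 probe set did not separate them fully, since mutant proximal maxilla number 1 read 11.67 there, above control proximal mandible numbers 1 and 4 at 11.66 and 11.63.

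Ntn4 was 0.76 ± 0.21 higher in distal than in proximal control mandible (adjusted p = 0.0368), with overlap at 8.22 distally and 8.23 proximally. Without the array of high Gapdh ratio the value was 0.67 and did not pass (adjusted p = 0.128). In mutant mandible Ntn4 was -0.01 ± 0.21 (adjusted p = 0.996). The genotype by end difference of Ntn4, -0.77 ± 0.30, did not pass (unadjusted p = 0.0173, adjusted p = 0.95), so the genotypes were not shown to differ in it.

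Ntn1 showed the largest end difference of the mutant mandible among members that passed. It read 9.56, 9.34, 9.34 and 9.55 distally, against 11.29, 10.95, 10.80 and 10.63 proximally. No distal array came within 1 log2 unit of a proximal one, and the difference was -1.47 ± 0.24 (adjusted p = 0.000256). In control mandible Ntn1 read 10.19, 9.89, 9.51 and 9.68 distally, against 10.20, 10.32, 10.65 and 10.87 proximally. The ends nearly touched, and -0.69 ± 0.24 did not pass (adjusted p = 0.108). The genotype by end difference was -0.78 ± 0.34 (unadjusted p = 0.0289, adjusted p = 0.999).

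Unc5b was 0.97 ± 0.24 higher in distal than in proximal mutant mandible (adjusted p = 0.0127), and 0.61 ± 0.24 in control, which did not pass (adjusted p = 0.16). Unc5d was lower distally in mutant mandible by -0.97 ± 0.24 (adjusted p = 0.0144), with -0.54 ± 0.24 in control (adjusted p = 0.249). The mutant call of Unc5d was lost without distal number 3 or 4 or proximal number 1, with an adjusted p of 0.0512 to 0.0784. The mutant mandible thus called 5 of 10 members, Ntn1, Unc5b, Unc5d, Flrt2 and Flrt3, against 5.03% of all genes. Its ends did not overlap for 9 of 10 members, Ntn4 being the exception, against 18% of all genes. The distal minus proximal value of Unc5a was -0.32 ± 0.10 in mutants (adjusted p = 0.077) and -0.32 ± 0.10 in controls (adjusted p = 0.0759), short of the threshold in both.

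No member passed a test for a difference of end or jaw effects between genotypes. The 4 interactions called 0 of 10 members each with limma, against 0.102% and 0.0073% of all genes for jaw at the distal and proximal end, and 0.0219% and 0.0584% for end in mandible and maxilla. At an unadjusted p under 0.05 they held 2, 2, 2 and 1 members in that order, against 7.3%, 2.17%, 4.24% and 4.78% of all genes. The calls differ between genotypes for Ntn1, Ntn4, Unc5b, Unc5c and Unc5d in the mandible, and none of these differences was shown by its own test.

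**Figure D4:**
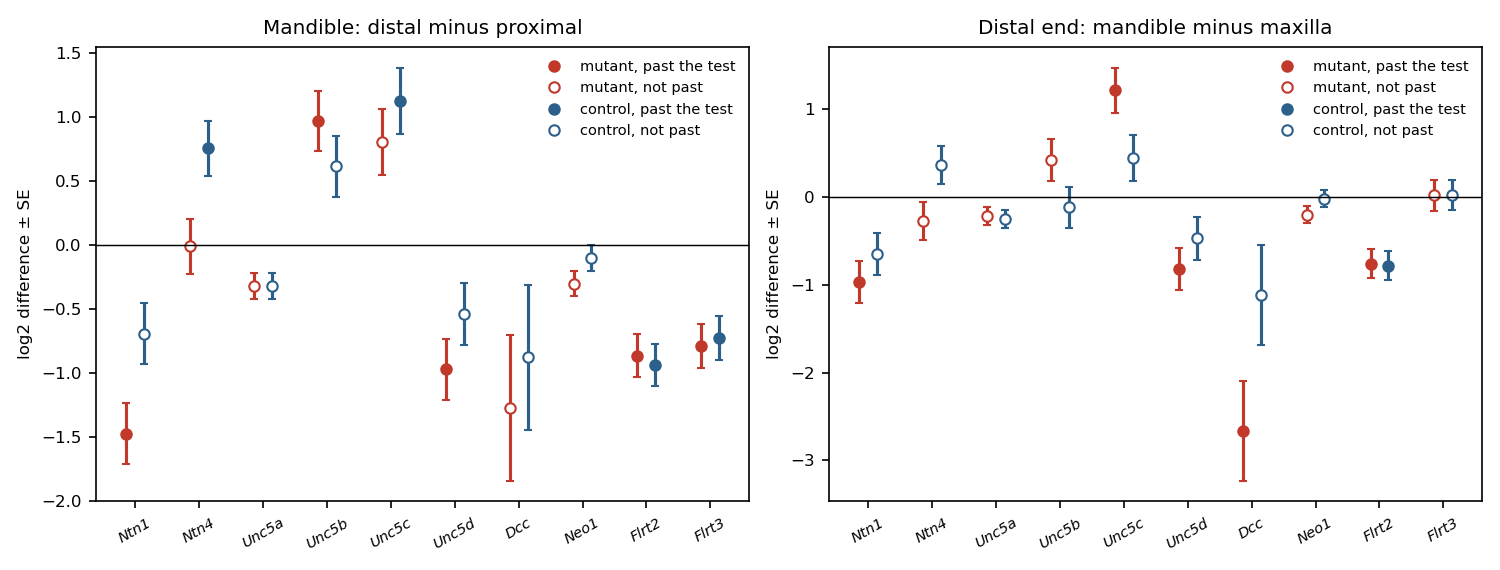
Differences in log2 expression with SE bars for the 10 genes, distal minus proximal in mandible at left and mandible minus maxilla at the distal end at right; mutant (red) stands left of control (blue), and filled points passed at an adjusted p of 0.05. Unc5b and Unc5c lie above 0 and Flrt2 and Flrt3 below 0 in the mandible of both genotypes.

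Markers of other tissues also differed between the ends of the mandible. In control mandible 5 of 9 skeletal muscle markers were lower distally, with list means of 8.60 ± 0.84 distally and 10.84 ± 0.31 proximally (SD, n = 4 each). In mutants 0 of 9 were called, with 9.92 ± 0.56 distally and 10.75 ± 0.50 proximally. Of 10 epithelial markers 3 were higher in distal control mandible, at 11.03 ± 0.18 against 10.27 ± 0.31, and 0 in mutants. Of 12 neuron markers 2, Nefl and Nefm, were lower distally in each genotype. Of 8 macrophage markers 7 were lower in distal mutant mandible, at 8.03 ± 0.08 against 9.25 ± 0.12, and 0 in control. Of 9 cartilage markers 2 were lower in distal mutant mandible, Col9a1 by -1.03 (adjusted p = 0.0248) and Sox9 by -1.01 (adjusted p = 0.0465), and 0 in control. Of 5 Schwann cell markers 2 were lower there in mutants, and 0 in controls. Of 9 mesenchyme markers, Prrx2 was higher distally in mutants by 0.78 (adjusted p = 0.0202). Pdgfra was lower distally by -0.37 in mutants (adjusted p = 0.00206) and by -0.35 in controls (adjusted p = 0.00466). The part of these tissues in the values of the 10 genes was not tested. Endothelial markers, 9 measured, were called in none of these comparisons. Of all genes 5.03% were called in mutant and 4.84% in control mandible. Calls in a single genotype do not show that the genotypes differ. No muscle, epithelial, macrophage, cartilage or mesenchyme marker passed for the genotype by end difference in mandible (adjusted p = 0.414 or more).

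Between the jaws, the Flrt genes passed at different ends. In distal control tissue Flrt2 was lower in mandible than in maxilla by -0.78 ± 0.17 (adjusted p = 0.00895), the 1 member of 10 called, against 1.47% of all genes. Without the doubtful arrays, left out for their own expression, it was -0.66 ± 0.15 (adjusted p = 0.0179), a description. Leaving out maxilla number 2 or mandible number 4 alone ended the call (adjusted p = 0.0587 and 0.0541). In distal mutant tissue it was -0.76 ± 0.17 (adjusted p = 0.00238). In proximal control tissue Flrt3 was higher in mandible by 0.84 ± 0.17 (adjusted p = 0.00276), the 1 member of 10 called, against 5.4% of all genes. In proximal mutant tissue it was 0.88 ± 0.17 (adjusted p = 0.00285), again the 1 member called, against 3.06%. The proximal control arrays of Flrt3 read 12.09, 12.22, 12.25 and 11.98 in mandible, against 11.55, 11.07, 11.19 and 11.38 in maxilla, with no overlap. In proximal mutant tissue 2 of 10 members, Flrt2 and Flrt3, did not overlap between the jaws, against 8.08% of all genes. In proximal control tissue 1 of 10 did not, against 11.1%, and in distal control tissue 1 of 10, Dcc, against 5.85%. Of 9 muscle markers, 2 in mutants and 7 in controls were higher in the proximal mandible than in the proximal maxilla. Of 12 neuron markers 5 were lower there in each genotype, and of 10 epithelial markers 2 in mutants and 5 in controls. Of 9 mesenchyme markers 1 was higher there in each genotype. Their part in the Flrt3 values was not tested. No muscle, epithelial or mesenchyme marker passed for the genotype by jaw difference at the proximal end.

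Distal mutant tissue called 5 of 10 members between the jaws, against 13.7% of all genes, and the jaws did not overlap for 5 of 10, against 20.7%. Ntn1 was lower in mandible by -0.97 ± 0.24 (adjusted p = 0.00678), Unc5d by -0.83 ± 0.24 (adjusted p = 0.0203) and Dcc by -2.66 ± 0.57 (adjusted p = 0.002). Unc5c was higher there by 1.21 ± 0.26 (adjusted p = 0.00215). The same 5 passed without the doubtful arrays, when Dcc stood at -2.08 ± 0.45. Those arrays were left out for their own expression, so this is a description. Of the neuron markers 8 of 12 were lower in the distal mandible than in the distal maxilla of mutants, and 2 of 12 in controls. Of 9 muscle markers 8 were higher there in mutants, and 0 in controls. Macrophage markers were lower there in 8 of 8 cases in mutants and 0 of 8 in controls, and Schwann cell markers in 4 of 5 in mutants and 0 of 5 in controls. Epithelial markers were lower in 4 of 10 cases in mutants and 2 of 10 in controls. In mutants Sox9, of 9 cartilage markers, was lower by -1.13, and Prrx1, of 9 mesenchyme markers, was higher by 0.88, with 0 called in controls from either list. The part of these tissues in the values of the 5 genes was not tested. Of all genes 13.7% were called in mutants and 1.47% in controls. Calls in a single genotype do not show that the genotypes differ. Of the macrophage, muscle, epithelial, cartilage and mesenchyme markers, only Ptprc passed for the genotype by jaw difference, -1.56 ± 0.31 (adjusted p = 0.0497). In controls Dcc was -1.12 ± 0.57 (adjusted p = 0.528) and Unc5c 0.44 ± 0.26 (adjusted p = 0.628).

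The ends of the maxilla were not separated with all arrays, and they overlapped for all 10 members, where 1.47% of all genes in mutants and 1.49% in controls did not overlap. In mutants 0 of 10 members passed with limma, 1 had an unadjusted p under 0.05, against 4.05% of all genes, and 0% of all genes were called. In controls 0 of 10 passed, 0 had an unadjusted p under 0.05, against 2.96%, and 0% of all genes were called. The doubtful arrays were left out because they resembled the opposite end, so values without them are partly fixed by that choice and are given as a description, with no test. Without them the distal minus proximal value of Unc5c was 0.54 in mutant and 0.88 in control maxilla, and that of Unc5b 0.58 in mutant and 0.78 in control maxilla.

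**Figure D5:**
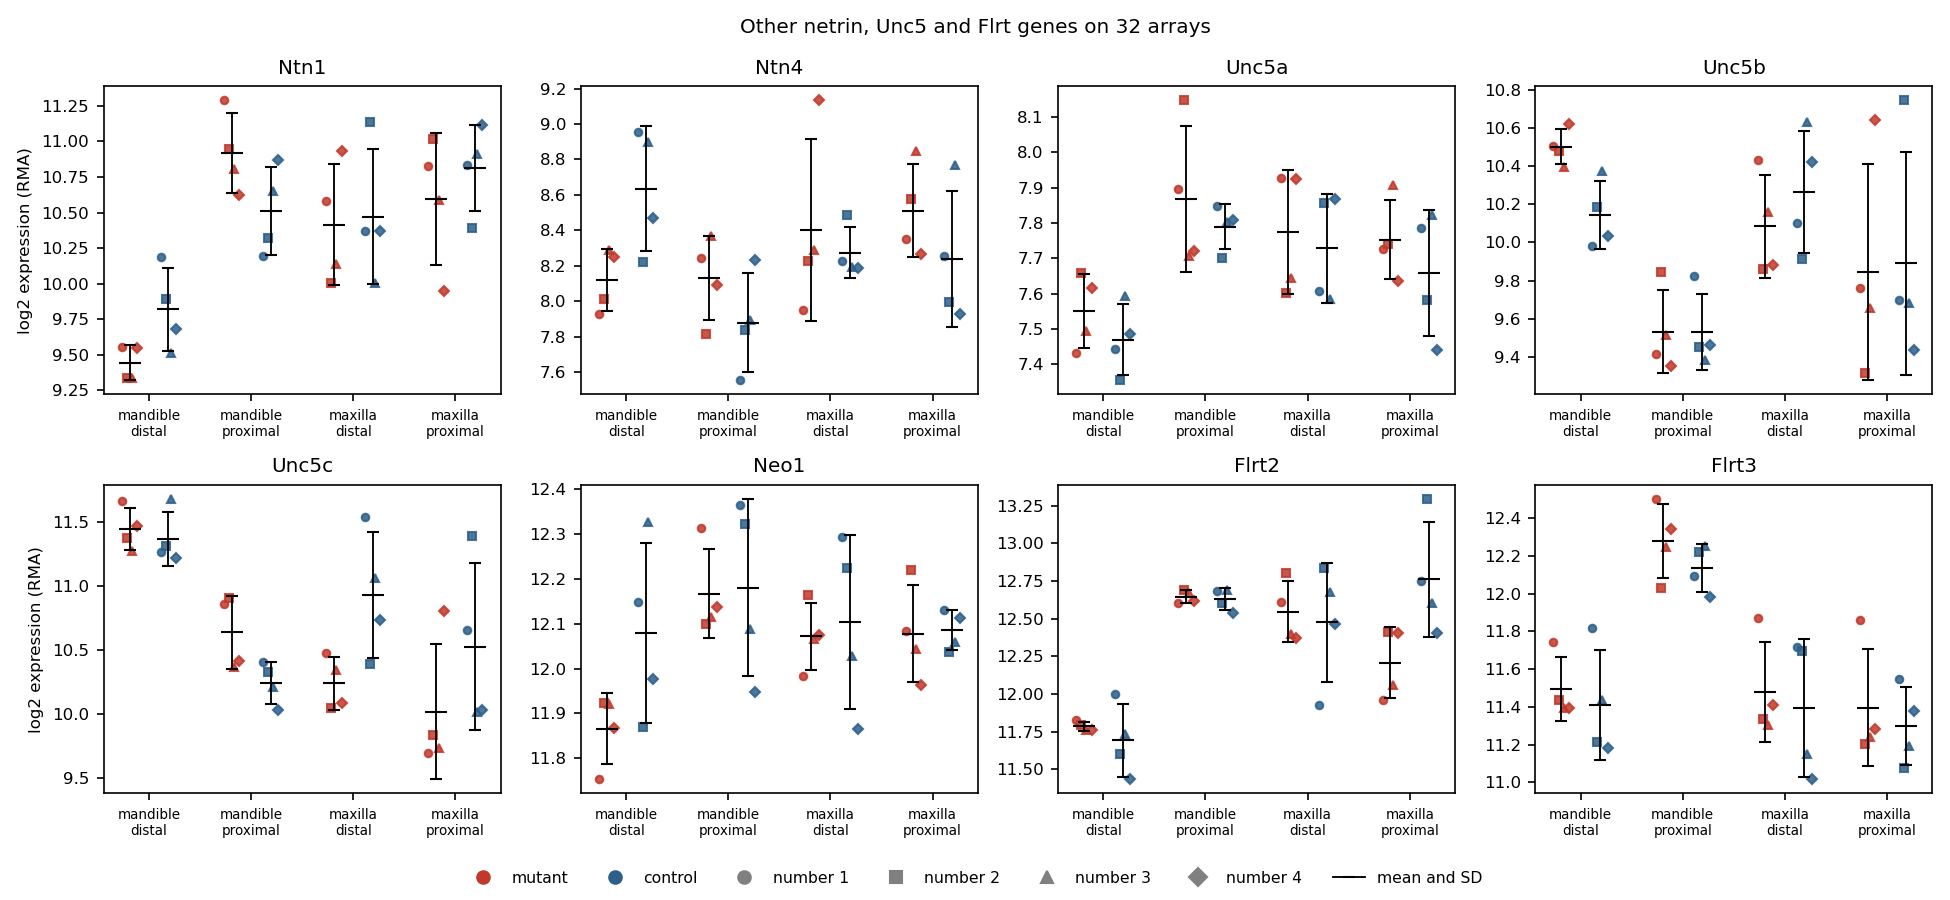
Log2 expression of the 8 remaining genes on each array by region, on scales that differ between panels, with mutant left of control and bars for the mean and SD of 4 arrays. In the mandible Unc5b and Unc5c have their higher means distally and Ntn1, Flrt2 and Flrt3 proximally, and in the proximal maxilla mutant number 4 and control number 2 carry the highest Unc5b and Unc5c.

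Over all 8 groups the members differed in how far their means spread. Dcc spanned 3.20, with 6.16 ± 0.39 in mutant distal mandible and 9.36 ± 1.18 in mutant proximal maxilla (SD, n = 4). Ntn1 spanned 1.47, from 9.45 ± 0.12 in distal to 10.92 ± 0.28 in proximal mutant mandible. Unc5c spanned 1.43, with 11.45 ± 0.17 in mutant distal mandible and 10.02 ± 0.53 in mutant proximal maxilla. Flrt2 spanned 1.07, Flrt3 0.98, Unc5b 0.97, Ntn4 0.76, Unc5a 0.40 and Neo1 0.31. Neighbouring groups in the order of means overlapped for all members except at 2 steps of Dcc and 1 step each of Neo1, Flrt2 and Flrt3.

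The genes whose values ran most closely with each member over the 32 arrays are given as a description, since arrays share tissue, batch and genotype. Unc5d lay closest to Nfia (r = 0.88), a transcription factor, and Gsn (r = 0.82), an actin-severing protein. Unc5b lay closest to Bmp4 (r = 0.89), a secreted growth factor, and Bambi (r = 0.88), a membrane inhibitor of BMP and TGF-beta signalling. Unc5c lay closest to Vwce (r = 0.87) and Bambi (r = 0.81). Ntn1 and Flrt2 both had Lrrc4c, the netrin-G1 ligand, among their 2 closest genes (r = 0.85 and 0.83), beside Slitrk1 (r = 0.86) for Ntn1 and Kank4 (r = 0.81) for Flrt2.

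Dcc lay closest to Rcan2 (r = 0.92) and Srgap3 (r = 0.92). Flrt3 lay closest to Ghrh (r = 0.85) and Pbx3 (r = 0.83). Neo1 lay closest to Dmxl1 (r = 0.83) and Serinc5 (r = 0.81), and Ntn4 to Podxl (r = 0.78) and Chl1 (r = 0.78). Unc5a had the weakest neighbours, Rab11fip4 and Dbx1 (r = 0.70 each). Between members, the highest correlation was that of Unc5b with Unc5c (r = 0.70), and the lowest that of Ntn1 with Unc5b (r = -0.70), each over 32 arrays.

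Related ligands and receptors beyond the 10 were counted from a list of 17, of which 15 were measured. On average over regions 1 of 15 was lower in mutants, against 1.37% of all genes called. This was Adgrl3, a latrophilin that binds Flrt proteins and through them Unc5 receptors. It differed by -0.37 ± 0.07 (adjusted p = 0.0421), and the median of the list was -0.18, against 0.00 for all genes. In the single regions 0 of 15 were called, against 0.0657% to 1.91% of all genes, with the Adgrl3 values between -0.62 and -0.19. Between the jaws, distal mutant tissue called 2 of the 15 higher and 5 lower in mandible, against 13.7% of all genes called. Lrrc4c led, at -2.20 ± 0.29 (adjusted p = 7.36e-06). Distal control tissue called Lrrc4c, at -1.80 ± 0.29 (adjusted p = 0.000541), and Adgrl2, a latrophilin, at 0.53 ± 0.10 (adjusted p = 0.00233). Proximal mutant tissue called Adgrl3, at -0.74 ± 0.18 (adjusted p = 0.0162), and Hjv, at 1.19 ± 0.33 (adjusted p = 0.0441). Proximal control tissue called Hjv, at 1.93 ± 0.33 (adjusted p = 0.000442). Of all genes 1.47% were called in distal control, 3.06% in proximal mutant and 5.4% in proximal control tissue.

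Between the ends of control mandible 1 of these 15 was higher and 4 were lower distally, against 4.84% of all genes called. The latrophilin Adgrl2 was higher by 0.47 ± 0.10 (adjusted p = 0.00382). Lrrc4c was lower by -1.50 ± 0.29 (adjusted p = 0.00276), and the Neo1 ligands Rgmb by -1.01 ± 0.23 (adjusted p = 0.00833) and Rgma by -0.90 ± 0.25 (adjusted p = 0.0316). Hjv, a relative of Rgma known from skeletal muscle, was lower by -1.44 ± 0.33 (adjusted p = 0.00916). In mutant mandible 1 was higher and 3 were lower, against 5.03% of all genes called. Lrrc4c stood at -2.21 ± 0.29 (adjusted p = 1.52e-05), Rgmb at -1.32 ± 0.23 (adjusted p = 0.000561) and Rgma at -1.37 ± 0.25 (adjusted p = 0.000771).

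Of 26 genes that act inside the cell below netrin receptors, 22 were measured. For genotype and for every regional difference in control tissue 0 of 22 were called, against 0% to 5.4% of all genes. In distal mutant tissue 1, the phosphatase gene Ptpn11, was 0.21 ± 0.07 higher in mandible than in maxilla (adjusted p = 0.0347). Of the Slit and Robo system, a separate set of repellents and their receptors, 9 of 10 genes were measured. In distal maxilla the repellent Slit3 was lower in mutants by -0.71 ± 0.17 (adjusted p = 0.0426), the 1 call of this list for genotype. Of all genes 0.788% were called in that region. Slit2 was lower in proximal mandible than in proximal maxilla, by -0.69 ± 0.16 in mutants (adjusted p = 0.0152) and by -0.57 ± 0.16 in controls (adjusted p = 0.0387). In distal mutant tissue Srgap1 was lower in mandible by -0.68 ± 0.14 (adjusted p = 0.00142) and Srgap3 by -1.22 ± 0.30 (adjusted p = 0.00638). Of all genes 13.7% were called between distal mutant jaws, 3.06% between proximal mutant jaws and 5.4% between proximal control jaws.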

How the data were processed

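The deposited values are log2 expression, 1 per probe set and array, made by the authors with RMA per the submitters' processing notes. RMA draws all arrays to 1 distribution and compresses low signals, and scanner files were not used here. Per the labels' protocols, each target was labelled from 5 µg of RNA. The files name no genome build.

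Of 45101 probe sets, 34945 carried 1 symbol, 932 several, 9160 none and 64 were controls, and 34741 matched a RefSeq gene table. Probe sets above their array's percentile 40 on at least 4 arrays were kept, and the one with the highest mean stood for its gene. This left 13705 genes and all 10 members. limma 3.58.1 in R 4.3.3 fitted the 8 group means (24 residual degrees of freedom), and the average effect of genotype compared means of the 4 regional arrays, 4 against 4 (6 residual degrees of freedom). P-values were adjusted by Benjamini-Hochberg over all genes within each of 17 comparisons, with a threshold of 0.05. Where a value is given over probe sets, the fit and adjustment ran over all probe sets past the filter. The fits were checked on simulated data.

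The members and lists were chosen with earlier results of these data known, and the 4 comparisons within mutant tissue were added after the first results were seen. Text names all members, Tgfbr1, up to 4 called genes per pathway list and comparison, and the 2 genes of highest correlation per member. The number of arrays limits the precision.

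Arrays of equal number deviated together in the averaged comparison of genotypes (correlations 0.44, 0.20, 0.40 and 0.23), for mutant proximal jaws and for mutant mandible ends. On this evidence of the data the numbers may pair the arrays there. The main fits held no term for the number, so their p-values ignore such pairing, and the block by number was run as an alternative. On arrays of number 1 the Cre spike-in read 13.86 to 14.08, against 12.71 to 13.45 on the other arrays. The part of a shift common to number 1 in these correlations was not tested. Alternatives were the block by number, other filters, averaged probe sets, repeated quantile normalization, left-out arrays, fits on only the groups compared and a random block by genotype and number.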

Additional observations from a re-analysis of the deposited data

Results flagged for a closer look

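In 5 of 80 combinations of a member and a group, 1 array lay farther from the other 3 than Dixon's test allows. Chance gives about 1 such array in 20 combinations. Unc5c was high on mutant proximal maxilla number 4, at 10.80, with the next array at 9.84, and this is one of the maxilla arrays that resembled the other end. Ntn4 was high on control distal maxilla number 2, at 8.49, with the next at 8.23, another of those arrays. Dcc was low on control distal mandible number 4, at 6.67, with the next at 7.82. Flrt3 was high on number 1 of mutant distal mandible, at 11.75, with the next at 11.43, and on number 1 of mutant proximal maxilla, at 11.86, with the next at 11.28.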

How the results depend on the processing

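Of 483 recomputed values of 22 single-gene results, 436 kept their direction and their side of the threshold, 47 kept their direction without passing, and 0 reversed. Fitting with the array number as a replicate block changed no call of a member, while the genes called for the average genotype effect were 388 against 188. In distal mandible they were 729 against 262, in proximal mandible 478 against 172, in distal maxilla 315 against 108 and in proximal maxilla 34 against 9. Without the maxilla arrays of mutant number 4 and control number 2, 1 member was called for genotype in distal maxilla (of 255 genes called), 2 between the ends of control maxilla (of 184), and 3 between mutant proximal jaws (Unc5c, Dcc and Flrt3, of 411). Those arrays were left out for resembling the opposite end, so these counts are a description. Between mutant proximal jaws 2 were called with probe sets averaged (of 426 genes) and 2 with genotype and number as a random block (of 617). With only the groups compared in the fit, 0 were called between control distal jaws (of 115 genes) and 8 between the ends of mutant mandible (of 1622). Leaving out arrays or numbers in turn, the members called were 0 to 1 between control distal jaws, 0 to 1 between control proximal jaws, 0 to 4 between the ends of control mandible, 4 to 5 between mutant distal jaws, 0 to 2 between mutant proximal jaws and 1 to 5 between the ends of mutant mandible. In that order the genes called were 66 to 351, 267 to 884, 96 to 937, 958 to 2137, 127 to 628 and 212 to 690. These lowest counts came without number 3, and between control proximal jaws also without number 2, where fewer arrays entered the fit. Flrt2 between control distal jaws also lost its call without number 2 or 4, without distal mandible 4 or without distal maxilla 2, when it lay between -0.73 and -0.63, number 3 included. Ntn4 between the ends of control mandible, at 0.54 to 0.88, lost it without number 1, 2 or 3 and without 6 of 8 single arrays. Flrt3 there lost it without number 2, 3 or 4, without distal number 4 or without proximal number 3.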
